A study of Mus musculus with 4 samples.

Results

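The major urinary protein (Mup) genes were followed in mouse liver through 8 of their copies, Mup1, Mup2, Mup3, Mup7, Mup9, Mup19, Mup20 and Mup21. They are 8 of the 20 rows named Mup and a number in the deposited tables, which list 35522 genes. The 8 genes were singled out with their Control and Dph1 KO values known, so these values are given as a description, without a test. All 4 libraries came from liver of C57BL/6 mice that received diethylnitrosamine (DEN), a carcinogen activated by liver P450 enzymes, and their titles give 24 h. Of these, 2 carried the genotype Control and 2 the genotype Dph1 KO, where Dph1 encodes a subunit of the enzyme that begins diphthamide synthesis on the elongation factor eEF2. The labels give no sex, age or number of animals, and neither the Dph1 allele nor a Cre driver. Nothing states that the libraries of a genotype came from separate animals. The p-values therefore rest on the spread between samples alone, and the labels do not tell how much of that spread is technical.

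Each library held 19474596 to 21137358 gene reads, of which 89.3% to 90.2% matched a single place in the genome. Dph1 itself stood at 70.3 and 68.3 CPM (read counts scaled to a common library total by TMM factors) in Control and at 17.8 and 31.5 CPM in Dph1 KO. This was a log2 fold change of -1.49 with an SE of 0.26 (Benjamini-Hochberg adjusted p = 0.011 by the quasi-likelihood test of edgeR). The 7 hepatocyte markers, Alb and Hnf4a among them, summed to between 41619 and 54002 CPM in the 4 libraries.

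Major urinary proteins are small secreted lipocalins that hold hydrophobic ligands in a barrel-shaped pocket. Mouse liver makes them in large amounts, and they pass through blood into urine, where they carry and release pheromones. Transcription in liver is known to depend on growth hormone acting through STAT5, with androgens, glucocorticoids and thyroid hormone, and male liver makes more than female liver. The genes lie in a tandem array that holds many near-identical copies and many pseudogenes, so a short read often matches several copies.

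In these tables the array spanned chr4:59956806-62150841 (GRCm38), and all 8 members lay on the minus strand. A window of 60 coding bases shows how far the copies differ. It is the ungapped stretch with the most variable positions, 25, among the 8 aligned coding sequences of GENCODE M21 (GRCm38). Bases are lower case where they equal Mup1 and in capitals where they differ from it.
Mup1: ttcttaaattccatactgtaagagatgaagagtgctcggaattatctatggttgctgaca
Mup2: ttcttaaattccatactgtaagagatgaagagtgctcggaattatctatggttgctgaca
Mup9: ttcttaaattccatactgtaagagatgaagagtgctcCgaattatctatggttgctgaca
Mup19: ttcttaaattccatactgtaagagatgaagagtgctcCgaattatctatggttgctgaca
Mup7: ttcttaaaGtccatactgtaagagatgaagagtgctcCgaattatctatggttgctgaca
Mup20: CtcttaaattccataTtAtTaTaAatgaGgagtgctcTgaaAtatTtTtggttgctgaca
Mup21: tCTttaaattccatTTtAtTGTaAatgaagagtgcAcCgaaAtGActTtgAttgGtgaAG
Mup3: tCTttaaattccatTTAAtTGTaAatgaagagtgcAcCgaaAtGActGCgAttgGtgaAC

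Even in this most variable window, Mup2 had 0 differences from Mup1, Mup9 and Mup19 had 1 and Mup7 had 2. Mup20 had 11, Mup21 had 19 and Mup3 had 21. Over the aligned coding bases, identity between members ran from 82.7% to 99.6% in 28 pairs. Mup1 and Mup9 differed at 4 of 705 bases, whereas Mup3 and its nearest relative among the members, Mup21, differed at 20 of 543.

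Cut into windows of 50 bases, the longest transcripts of Mup3 and Mup21 had 84.4% and 80.7% of their windows in no other gene. The share was 49.5% for Mup20, 9.76% for Mup7, 7.44% for Mup9 and 5.24% for Mup1, and it was 0% for Mup2 and Mup19. The search also covered transcripts of genes outside the Mup family. Mup20 shared at most 3.07% of its windows with any single other Mup gene, so its 49.5% does not measure likeness to the other copies. In the deposited reads Mup3, Mup21, Mup20 and Mup7 likewise led in unique share. Over the 4 libraries, unique reads were 99.1% of the reads of Mup3, 98.9% of Mup21, 71.1% of Mup20 and 27.8% of Mup7. They were 3.65% of the reads of Mup2, 0.58% of Mup1, 0.13% of Mup19 and 0.01% of Mup9. Single rows of low unique share are uncertain, because the way in which the authors divided shared reads among copies is not given.

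**Figure D1:**
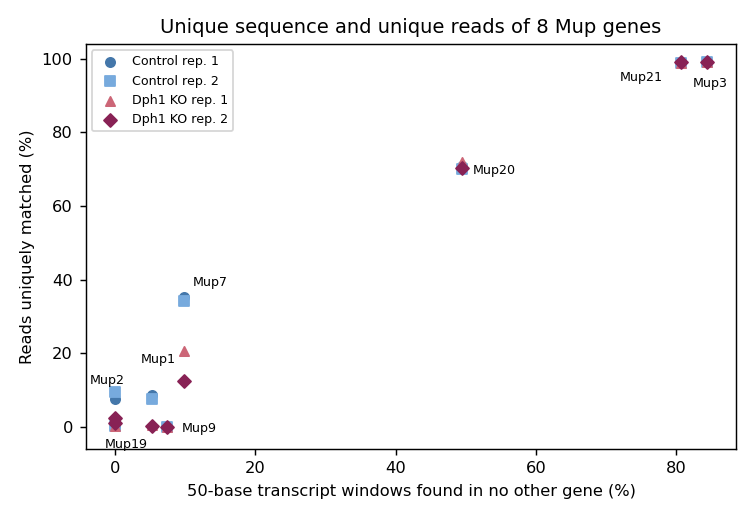
Share of 50-base transcript windows found in no other gene (x axis, %) against the share of reads uniquely matched (y axis, %) for the 8 members, with a point for each library. Mup3, Mup21 and Mup20 lie at 70% unique reads or more in every library, and Mup1, Mup2, Mup9 and Mup19 lie below 10%.

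Summed over the 20 Mup rows, total reads were more numerous in both Dph1 KO libraries than in either Control library, while unique reads overlapped between the genotypes. The array took 196722 and 150976 reads in Control against 403212 and 291394 in Dph1 KO. These were 1.01% and 0.742% of the gene reads in Control against 1.98% and 1.38% in Dph1 KO, and the groups did not overlap. On the TMM scale the sum was 9548 ± 1628 CPM in Control against 15208 ± 2659 CPM in Dph1 KO (SD, n = 2), a log2 fold change of 0.67 (SE 0.35).

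Unique reads of the array numbered 79612 and 60287 in Control against 104444 and 53148 in Dph1 KO. The Dph1 KO libraries thus held both the highest and the lowest value. The unique sum was 4290 ± 778 CPM in Control against 3811 ± 1562 CPM in Dph1 KO (SD, n = 2), with a log2 fold change of -0.17 (SE 0.35). Its sign turned when Control replicate 1 (0.02) or Dph1 KO replicate 2 (0.21) was left out, and without TMM scaling (0.10). Unique reads made up 40.5% and 39.9% of the array's reads in Control, against 25.9% and 18.2% in Dph1 KO.

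**Figure D2:**
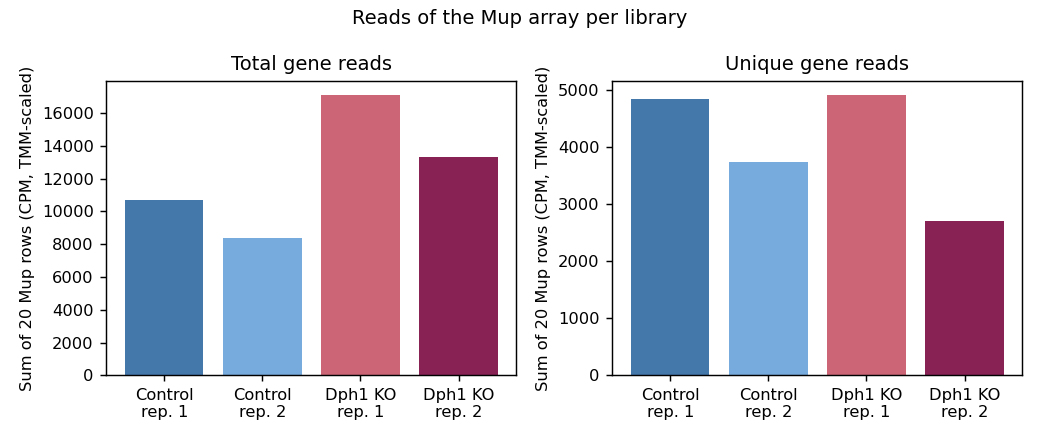
Sum of the 20 Mup rows in each library (y axis, TMM-scaled CPM, from 0), for total gene reads (left) and unique gene reads (right). The total sums are 10699 and 8397 CPM in Control against 17089 and 13328 CPM in Dph1 KO, and the unique sums are 4841, 3740, 4915 and 2707 CPM in the same order.

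The span also held 18 rows under other names, most of them Mup pseudogenes. Of these, the row matched to Mup22 by gene ID had 23784 and 18821 total reads in Control against 20501 and 355 in Dph1 KO, with at most 87 of them unique. The row matched to Mup18 had between 147 and 554. With Mup18 and Mup22 added, the array summed to 12023 and 9471 CPM in Control against 17971 and 13351 CPM in Dph1 KO. With all 18 rows added, the log2 fold change of the total sum was 0.54.

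Per length, on the deposited RPKM scale, Mup3 was the highest member in Control at 1839 ± 347 RPKM (SD, n = 2). Mup20 (1293 ± 369) and Mup7 (1257 ± 252) came next and did not differ beyond their spread. Mup19 followed at 745 ± 91.3, Mup1 at 177 ± 22.5, Mup2 at 97.1 ± 23.2, Mup21 at 38.7 ± 1.62 and Mup9 at 1.14 ± 0.95. In Dph1 KO the order began with Mup1 at 4179 ± 194, Mup3 at 2609 ± 598 and Mup9 at 1971 ± 360. Mup20 (1382 ± 1314) and Mup7 (1001 ± 952) varied too widely there to be ranked against each other or against Mup9. Mup2 stood at 403 ± 53.2, Mup21 at 72.8 ± 16.6 and Mup19 at 51.2 ± 64.3 RPKM. Their order did not hold in each library. Mup7 (327 RPKM) lay below Mup2 (365) in Dph1 KO replicate 2, and Mup19 (96.7) lay above Mup21 (84.5) in replicate 1. RPKM values use total exon reads and so carry the division of shared reads with them.

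Mup3, at chr4:62083476-62087312 with 7 exons, held about as many unique as total reads and was the main source of unique reads in every library. Its unique reads numbered 38339 and 30580 in Control against 58574 and 43675 in Dph1 KO. On the TMM scale these were 2331 and 1897 CPM in Control against 2757 and 2225 CPM in Dph1 KO, so the groups overlapped. The log2 fold change was 0.24 (SE 0.30) by total reads and 0.24 (SE 0.28) by unique reads. By total reads it was -0.03 after removal of a trend on GC content and exon length and 0.51 without TMM scaling.

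Mup21, at chr4:62147832-62150841 with 6 exons, closes the array on the side of Mup3 and was far less abundant. It had 607 and 593 unique reads in Control against 1337 and 1010 in Dph1 KO. That corresponded to 36.9 and 36.8 CPM in Control against 62.9 and 51.4 CPM in Dph1 KO, without overlap. As a log2 fold change this was 0.64 (SE 0.20) by total and 0.63 (SE 0.20) by unique reads. It stayed between 0.50 and 0.80 when each library was left out and was 0.37 with the GC and length trend removed.

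Mup20 encodes darcin, the male pheromone that draws females to scent marks, at chr4:62050234-62054117 with 7 exons. Its unique reads numbered 19941 and 13814 in Control against 31671 and 6272 in Dph1 KO. In CPM, the Dph1 KO libraries stood at 1491 and 319, on either side of the Control libraries at 1213 and 857. The 4.67-fold gap between the Dph1 KO libraries exceeded the 1.41-fold gap between the Control libraries. The log2 fold change of -0.21 (SE 0.54) by total reads became -1.67 when Dph1 KO replicate 1 was left out and 0.52 when replicate 2 was.

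Mup7, at chr4:60066469-60070475 with 7 exons, was lower in both Dph1 KO libraries by unique reads. These numbered 10494 and 7954 in Control against 7555 and 926 in Dph1 KO, or 638 and 493 CPM against 356 and 47.2 CPM. By total reads the groups overlapped, with 1616 and 1296 CPM in Control against 1548 and 338 CPM in Dph1 KO. This gave log2 fold changes of -0.63 (SE 0.53) by total and -1.49 (SE 0.65) by unique reads. By total reads it was -2.08 when Dph1 KO replicate 1 was left out and 0.10 when replicate 2 was.

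The 2 Dph1 KO libraries stood apart from each other in a part of the array. TMM-scaled unique CPM were 7.54-fold higher in replicate 1 than in replicate 2 for Mup7, and the same ratio was 91.6 for Mup11 and 206 for Mup14. For Mup15 it was 33.3, from 36 against 1 unique read, whereas by total reads it ran the other way at 0.49 (1463 against 2761 reads). For Mup3 it was 1.24, for Mup21 1.22, for Mup2 1.23 and for Mup1 1.32. The Control libraries differed by at most 1.65-fold in these 8 genes. Mup11 had 3883, 2650, 1784 and 18 unique reads in Control replicates 1 and 2 and Dph1 KO replicates 1 and 2, and Mup14 had 2468, 1463, 1562 and 7.

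Mup1, at chr4:60498012-60501960 with 9 exons, had 4225 and 3683 total reads in Control against 93187 and 102587 in Dph1 KO. On the total scale the Dph1 KO libraries lay far above Control, at 3949 and 4692 CPM against 230 and 205 CPM. Its unique reads ran the other way, at 361 and 282 in Control against 319 and 224 in Dph1 KO, or 22.0 and 17.5 CPM against 15.0 and 11.4 CPM. The log2 fold change was 4.31 (SE 0.33) by total reads, -0.58 (SE 0.22) by unique gene reads and -0.64 by unique exon reads. Unique reads over exon junctions alone numbered 94 and 96 in Control against 180 and 184 in Dph1 KO. Unique gene reads made up 8.54% and 7.66% of the reads of Mup1 in Control against 0.342% and 0.218% in Dph1 KO. By sequence, 5.24% of its transcript windows lay in no other gene. Whether the total reads given to Mup1 in Dph1 KO came from Mup1 itself was not tested.

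Mup9, at chr4:60419160-60421952 with 5 exons, had 26 and 7 total reads in Control against 25990 and 34785 in Dph1 KO. By this count alone it was close to silent in Control and among the leading members in Dph1 KO, with a log2 fold change of 10.53 (SE 0.58). This was 11.73 when Control replicate 1 was left out and 9.89 when Control replicate 2 was. Its unique reads were 0 in both Control libraries and 3 and 2 in Dph1 KO. In Dph1 KO these were 0.012% and 0.0057% of its total reads, whereas 7.44% of its transcript windows lay in no other gene. Whether the total reads given to Mup9 came from Mup9 itself was not tested. A count of 0 allows up to 3 reads, so no fold is given on unique reads, and they did not enter the fit on unique reads.

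Mup2, at chr4:60135932-60139857 with 8 exons, had 2300 and 1705 total reads in Control against 9502 and 8152 in Dph1 KO. The total CPM were 125 and 94.8 in Control against 403 and 373 in Dph1 KO, without overlap. By unique reads, at 175, 159, 260 and 196, the CPM were 10.6 and 9.86 in Control against 12.2 and 9.98 in Dph1 KO, which overlapped with Control. Its log2 fold change was 1.82 (SE 0.25) by total reads and 0.12 (SE 0.22) by unique reads. Nearly all unique reads of Mup2 crossed an exon junction (175, 157, 259 and 195 reads).

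Mup19, at chr4:61778328-61782224 with 7 exons, had 14252 and 12474 total reads in Control against 1809 and 110 in Dph1 KO. At 775 and 694 CPM in Control against 76.7 and 5.03 CPM in Dph1 KO, it was the member that ran lowest in Dph1 KO relative to Control. Its log2 fold change was -4.17 (SE 0.88) by total reads, -7.16 when Dph1 KO replicate 1 was left out and -3.25 when replicate 2 was. The unique reads numbered only 18, 14, 4 and 1, and all of them lay in introns.

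**Figure D3:**
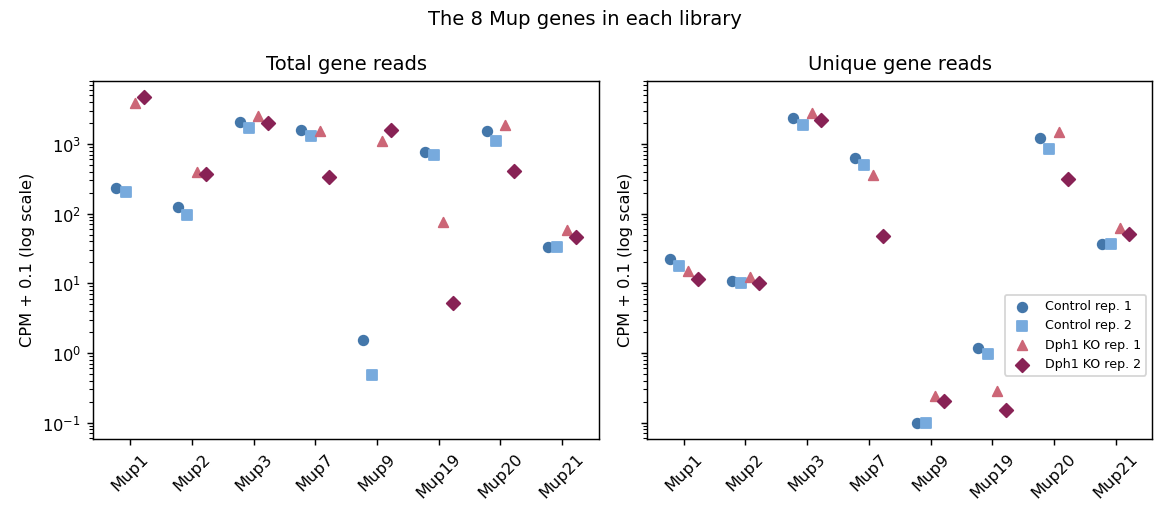
CPM + 0.1 on a log axis for the 8 members in each library, from total gene reads (left) and unique gene reads (right). Mup1, Mup9 and Mup19 separate the genotypes widely on the left, while on the right Mup1 is at 22.0, 17.5, 15.0 and 11.4 CPM and Mup9 is at 0 in Control.

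Members with opposite values shared much of their sequence. Mup9 shared 76.3% of its 50-base windows with Mup19 and 75.1% with Mup1, and Mup1 shared 78.9% of its windows with Mup19. Mup10, a copy outside the 8, had 16011 and 14802 total reads in Control against 100242 and 76056 in Dph1 KO, of which 2, 2, 62 and 84 were unique. Taken as a group chosen after their values were seen, Mup1, Mup9 and Mup10 held 10.3% and 12.2% of the array's total reads in Control against 54.4% and 73.2% in Dph1 KO. Intron reads of Mup1 counted in total were 19 and 23 in Control against 559 and 475 in Dph1 KO, and those of Mup10 were 481, 517, 2531 and 2074.

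Further copies were lower in Dph1 KO. Mup15 had 13867 and 9848 total reads in Control against 1463 and 2761 in Dph1 KO, with 360, 250, 36 and 1 unique. Mup17 had 2199 and 1924 unique reads in Control against 674 and 375 in Dph1 KO, but its total reads (4807, 4096, 4999 and 4519) differed little. Its log2 fold change was -0.23 by total reads (0.03 without TMM scaling) and -2.31 by unique reads. Mup16 had 1324 and 1113 total reads in Control, 608 and 294 in Dph1 KO, and log2 fold changes of -1.77 (SE 0.29) by total and -1.24 (SE 0.25) by unique reads.

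Mup12, at 83.6, 81.4, 78.1 and 23.9 total CPM, had a log2 fold change of -0.69 (SE 0.41), which was -1.76 when Dph1 KO replicate 1 was left out and -0.06 when replicate 2 was. Mup4, Mup5, Mup6, Mup8 and Mup13 had between 1 and 31 total reads in any library.

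By unique reads, the makeup of the array shifted toward Mup3. The 8 members held 87.8% and 88.6% of its unique reads in Control against 95.5% and 98.4% in Dph1 KO. Mup3 alone held 48.2% and 50.7% in Control against 56.1% and 82.2% in Dph1 KO. Mup20 took 25.0% and 22.9% in Control against 30.3% and 11.8% in Dph1 KO. Mup7 took 13.2% in each Control library and 7.23% and 1.74% in Dph1 KO. Counting error (95% Clopper-Pearson, which covers counting error only) was small beside these differences, with a half-width of at most 0.40 percentage points for any share of array reads given.

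**Figure D4:**
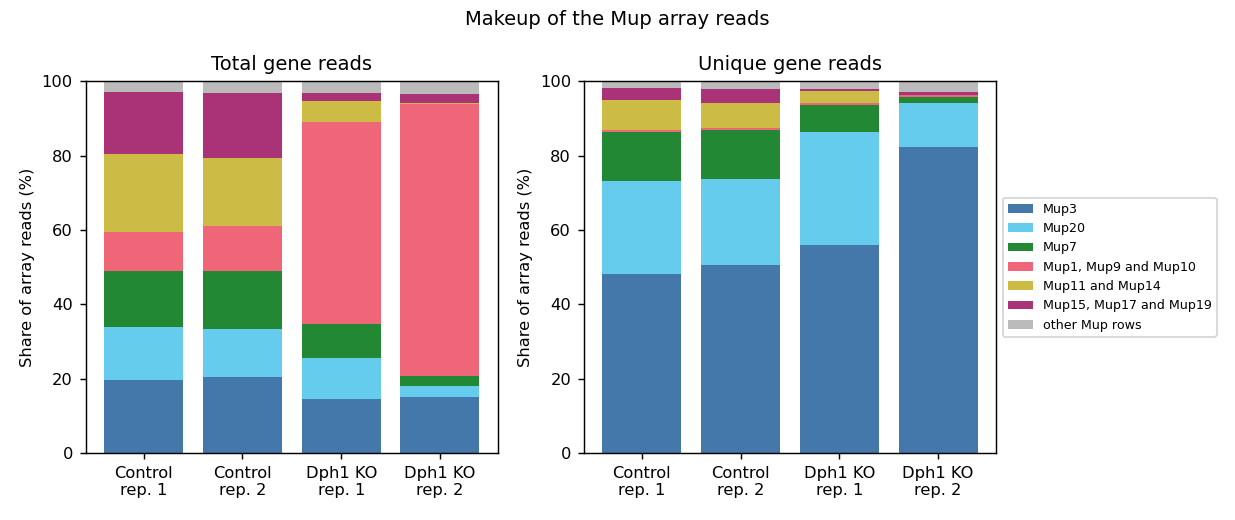
Stacked shares of the array's reads (y axis, %) by gene or group of genes in each library, for total gene reads (left) and unique gene reads (right). Mup1, Mup9 and Mup10 together fill 54.4% and 73.2% of total reads in Dph1 KO, and Mup3 fills 56.1% and 82.2% of unique reads.

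Of the 8 members, 3 (Mup1, Mup2 and Mup9) passed the threshold upward and 1 (Mup19) downward by total reads, where all 8 passed the filter on low counts. By unique reads 7 of 8 passed that filter, 0 were called upward and 1 downward. Over all genes tested, 4.86% were called upward and 7.47% downward by total reads, and 4.8% and 7.53% by unique reads. The members were chosen on this contrast, so nothing is read from these counts.

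The upstream sequence of Mup3 and Mup21 is shown for the pair of members with the highest unique shares, Mup21 having been added after its values were seen. RefSeq promoters (GRCm38.p6, 250 bases before to 50 after the start) were found for 6 of the 8 members, Mup2, Mup3, Mup7, Mup9, Mup19 and Mup21. Those of Mup3 and Mup21 were 93.9% identical over 294 aligned bases, and the identity of Mup3 to the other 4 lay between 85.8% and 88.6%. The 250 bases before the start lie on the minus strand at chr4:62087318-62087567 for Mup3 and chr4:62150842-62151091 for Mup21, with the letters TGTTCT, a half-site of the glucocorticoid and androgen receptors, in capitals.
Mup3: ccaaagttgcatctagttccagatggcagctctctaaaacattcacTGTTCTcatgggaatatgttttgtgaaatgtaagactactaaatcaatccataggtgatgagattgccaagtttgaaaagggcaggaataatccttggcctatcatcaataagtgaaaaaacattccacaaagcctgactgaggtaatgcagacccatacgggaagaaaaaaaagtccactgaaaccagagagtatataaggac
Mup21: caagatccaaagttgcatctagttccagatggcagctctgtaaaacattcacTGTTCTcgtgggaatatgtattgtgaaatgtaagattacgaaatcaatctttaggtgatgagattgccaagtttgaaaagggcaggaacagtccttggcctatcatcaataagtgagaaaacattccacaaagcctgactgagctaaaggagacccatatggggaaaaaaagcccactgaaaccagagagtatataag

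Searched on both strands of 14 Mup promoters, TGTTCT was found in those of Mup3 and Mup21 only, and in 19.0% of 32851 RefSeq promoters. The place aligned with this half-site lies wholly or partly before the promoters of Mup2, Mup9, Mup10, Mup15, Mup17 and Mup19. They could therefore not show the half-site there. Those of Mup4, Mup6, Mup7, Mup11, Mup14 and Mup18 cover the place and lack the half-site. CCAAT was found in 6 of the 14, of which Mup7 was the only member (37.4% of all promoters). The promoters of Mup2, Mup9, Mup10 and Mup19 begin inside or after the place aligned with it, so they could not show it. The exact letters TATAAA were found in the promoters of Mup4 and Mup6 and of none of the members (13.6%). At the aligned place Mup2, Mup3, Mup9, Mup19 and Mup21 read TATATAAG, which this search does not match. The promoter of Mup7 ends before that place. The STAT motif TTCNNNGAA was found in 0 of the 14 (8.30%).

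Genes of the growth hormone axis, which drives Mup transcription, changed in part. Of 16 tested, 4 rose and 1 fell, with a median log2 fold change of 0.33. Over all 13303 genes tested, 12.3% were called and the median was 0.04. Cish, a STAT5-induced inhibitor of cytokine signalling, went from 39.1 and 34.5 CPM in Control to 13.2 and 11.7 CPM in Dph1 KO and fell by 1.56 on the log2 scale (SE 0.20, edgeR adjusted p = 0.0017). Bcl6, a repressor that opposes STAT5 at sex-biased liver genes, went from 10.4 and 15.9 to 43.2 and 39.8 CPM (log2 fold change 1.66, SE 0.23, edgeR adjusted p = 0.0032). Igfbp3, which carries IGF1 in blood, went from 11.7 and 7.40 to 24.4 and 27.3 CPM (1.44, SE 0.24, edgeR adjusted p = 0.0087).

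Cish was lower and Bcl6 and Igfbp3 higher in each Dph1 KO library than in any Control library. These genes were picked by their low p in this comparison, so the separation adds no support to it. The other genes that rose were named after their values were seen. They are Gh, the hormone gene, and Prlr, the prolactin receptor gene. In the order Control 1 and 2, Dph1 KO 1 and 2, Gh had 1, 0, 37 and 361 reads. Prlr stood at 30.6, 29.6, 97.1 and 55.3 CPM in the same order. The Dph1 KO libraries stood far apart for Gh, at 1.57 and 16.5 CPM. Whether the Gh reads came from liver cells was not tested. Prlr was not called with the GC and length trend removed (edgeR adjusted p = 0.060). The receptor gene Ghr had a log2 fold change of 0.36 (SE 0.22), Stat5b of 0.30 (SE 0.19) and Igf1 of 0.44 (SE 0.23). Jak2 had 0.52 (SE 0.24) and Stat5a 0.14 (SE 0.20). Lower in Dph1 KO were Igfals (-0.49, SE 0.26), Cux2 (-0.40, SE 0.55) and Onecut1 (-0.15, SE 0.23). None of these genes passed the threshold. With the GC and length trend removed, Ghr (-0.16), Igf1 (-0.23) and Igfals (0.10) turned in direction. Other inhibitors of cytokine signalling in the list were not called either. Socs2 had a log2 fold change of 0.86 (SE 0.39), Socs1 of -0.41 (SE 0.51) and Socs3 of -0.10 (SE 0.25). With that trend removed, Socs1 (0.21) and Socs3 (0.49) turned as well.

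Transcription factors and receptors known to act on Mup or hepatocyte promoters gave 0 calls among 15 tested by edgeR, with a median log2 fold change of 0.05. At an unadjusted p under 0.05, 2 were higher and 4 lower, where 16.3% and 17.9% of all genes were. DESeq2 called 2 lower, against 10.4% of all genes. Hnf4a, a nuclear receptor that maintains hepatocyte genes, stood at 394 and 398 CPM in Control against 472 and 448 CPM in Dph1 KO (log2 fold change 0.22, SE 0.24). Cebpa, a hepatocyte leucine zipper factor, stood at 738 and 446 CPM in Control against 334 and 490 CPM in Dph1 KO (-0.52, SE 0.32), and the groups overlapped. The direction of Cebpa turned, to 0.17, with the GC and length trend removed.

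Genes that are higher in male than in female liver, as Mup genes are, moved in both directions. Of 15 tested, 3 rose and 2 fell, where 4.86% of all genes rose and 7.47% fell, with a median log2 fold change of -0.11. Cyp4a12b, a fatty acid hydroxylase, went from 41.6 and 97.2 CPM in Control to 10.6 and 6.81 CPM in Dph1 KO (log2 fold change -2.996, SE 0.38, edgeR adjusted p = 0.0016), and its fold change was -2.26 without Control replicate 2. Elovl3, a fatty acid elongase, went from 2.72 and 10.96 to 29.0 and 28.5 CPM (log2 fold change 2.07, SE 0.45, edgeR adjusted p = 0.021), with 1.38 without Control replicate 1 and 3.398 without Control replicate 2. Hsd3b5, a steroid dehydrogenase of male liver, went from 11.4 and 18.6 to 46.6 and 31.2 CPM (1.38, SE 0.27, edgeR adjusted p = 0.017), a call lost without Control replicate 1.

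Genes that are higher in female liver were mostly too low to test, with 8 of 24 past the filter. Of those 8, 5 rose and 1 fell, beside 4.86% and 7.47% of all genes, with a median log2 fold change of 1.72. The filter also admits genes that are high in a single group, so these counts do not stand for the list. Cyp17a1, a steroid hydroxylase, went from 2.88 and 5.45 CPM to 25.2 and 29.3 CPM (log2 fold change 2.71, SE 0.29, edgeR adjusted p = 0.0005). Cyp2a4, a testosterone hydroxylase, went from 1.31 and 7.23 to 47.6 and 32.2 CPM, and Cyp2b9, another P450, from 0.816 and 3.17 to 15.7 and 8.14 CPM (2.58, SE 0.49, edgeR adjusted p = 0.014). Cyp2a4 has a close paralog, and its log2 fold change was 3.22 by unique reads alone. When Control replicate 1 or 2 was left out, Cyp2a4 had log2 fold changes of 2.46 and 4.93 by total reads, and Cyp2b9 of 1.90 and 3.86.

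**Figure D5:**
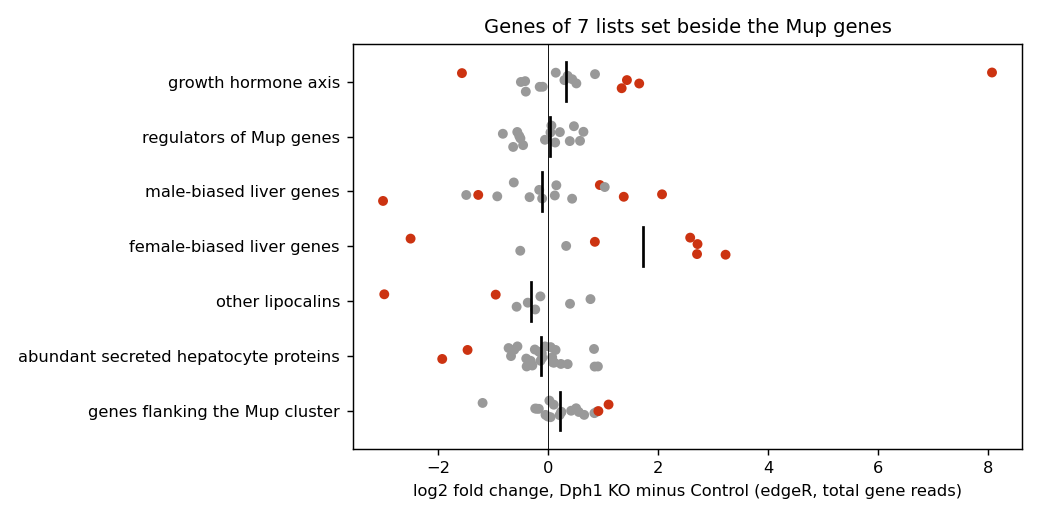
Log2 fold change (x axis, Dph1 KO minus Control, edgeR on total gene reads) of each tested gene in 7 lists (y axis), red where the adjusted p was under 0.05 and grey otherwise, with a black bar at the list's median. The medians lie between -0.30 for other lipocalins and 1.72 for the 8 tested female-biased genes, and Gh is the point at 8.07.

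Lipocalins outside the array gave 2 falls and 0 rises among 8 tested, beside 7.47% and 4.86% of all genes, with a median log2 fold change of -0.30. Orm3, an acid glycoprotein gene, went from 18.1 and 13.8 CPM to 1.91 and 2.15 CPM and fell by 2.97 (SE 0.26, edgeR adjusted p = 0.00011). Orm2 went from 58.4 and 94.0 to 34.5 and 44.5 CPM and fell by 0.95 (SE 0.26, edgeR adjusted p = 0.041). That call was lost when Control replicate 2 or Dph1 KO replicate 1 was left out. Lcn2, the acute phase lipocalin, had 210 and 197 CPM in Control against 97.1 and 599 CPM in Dph1 KO, so that the Dph1 KO libraries lay on either side of Control.

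Among 28 other proteins that hepatocytes secrete in bulk, 0 rose and 2 fell, beside 4.86% and 7.47% of all genes, with a median log2 fold change of -0.12. At an unadjusted p under 0.05, 3 were higher and 3 lower, and DESeq2 called 3 higher and 5 lower, where it called 4.67% and 10.4% of all genes. Apoa1, the main protein of high-density lipoprotein, went from 26414 and 33265 CPM to 6265 and 9499 CPM and fell by 1.92 (SE 0.38, edgeR adjusted p = 0.016). Serpina1e, an alpha-1-antitrypsin copy, went from 13344 and 15145 to 5271 and 5083 CPM and fell by 1.46 (SE 0.32, edgeR adjusted p = 0.023). That call was lost without either Control library. It also belongs to a family of near-identical copies, and by unique reads its log2 fold change was -1.48.

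Of the 20 tested genes nearest the array on chromosome 4, 10 on each side, 2 rose and 0 fell, with a median log2 fold change of 0.23. That is 10% called, near the 12.3% of all genes. Ptgr1, a prostaglandin reductase, had a log2 fold change of 1.10 (SE 0.26, edgeR adjusted p = 0.027). AI314180 had 0.92 (SE 0.21, edgeR adjusted p = 0.026). Both calls were lost when either Control library was left out, and that of AI314180 also with the GC and length trend removed (edgeR adjusted p = 0.079).

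Other values that could move with a male-biased, hepatocyte-made gene family were measured beside it. Xist, expressed in female cells, had 4, 2, 1 and 0 reads. The Y-linked genes were present in every library, with Ddx3y at 11.7 and 15.0 CPM in Control against 24.6 and 15.2 CPM in Dph1 KO, and Uty at 4.02, 3.89, 6.95 and 3.80 CPM. Eif2s3y (13.7, 13.0, 28.4 and 19.1 CPM) and Kdm5d (6.69, 5.39, 12.8 and 9.56 CPM) rose, but neither was called with the GC and length trend removed (edgeR adjusted p = 0.12 and 0.20).

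By edgeR, 0 of 7 hepatocyte markers, 0 of 5 Kupffer cell, 0 of 5 endothelial and 0 of 5 cholangiocyte markers were called. At an unadjusted p under 0.05 these were 1 higher and 1 lower, 0, 0 and 2 lower, and DESeq2 called 1 hepatocyte marker higher, 1 lower and 0 of the others. Among 5 stellate cell markers 2 fell, Des and Col1a1, where 7.47% of all genes fell, and 1 was higher at an unadjusted p under 0.05. Neither was called with the GC and length trend removed (edgeR adjusted p = 0.13 and 0.068), the call of Des was lost when either Control library or Dph1 KO replicate 1 was left out, and that of Col1a1 without Control replicate 2. The summed level of the list was 115 and 139 CPM in Control against 126 and 109 CPM in Dph1 KO. Kupffer cell markers summed to 114 and 126 CPM in Control and to 97.1 and 161 CPM in Dph1 KO. The part of these cell types in the Mup values was not tested, and in bulk tissue fewer cells of a type and less RNA per cell cannot be told apart.

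Among 11195 genes with a mean of at least 1 CPM, the pattern across the 4 libraries most like that of the Mup unique sum belonged to Tmem136. Its root mean square distance of centred log2 CPM was 0.059, followed by Plau (0.092), Zfp566 (0.10), Cyyr1 (0.10) and Cxcl11 (0.11). All 5 were near the lowest level admitted, such as Tmem136 at 2.28 and 1.67 CPM in Control against 2.16 and 1.14 CPM in Dph1 KO. With 4 libraries this likeness is a description only.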

How the data were processed

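Liver mRNA of 4 libraries was sequenced with a stranded kit, per the labels' protocols. Per the submitters' processing notes, reads were placed on GRCm38 (mm10). No aligner, counter or strand setting is named in the sources used here. Per the file headers, the authors deposited whole-number read counts per gene, total and unique, and RPKM and TPM values made from exon reads. The deposited RPKM were used for levels and TPM were not tested.

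The 8 members, the gene lists and the rule for named genes were chosen with earlier results of these data known. The rule names all members, other Mup rows with at least 10 unique reads, up to 3 called genes of each list with the lowest p (or the 2 most abundant), the sex-chromosome genes and 5 genes of like pattern.

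Counts were fitted in R 4.3.3 with edgeR 4.0.16 (filterByExpr, TMM factors 0.945, 0.884, 1.16 and 1.04, glmQLFit and glmQLFTest on genotype). Benjamini-Hochberg adjustment was over 13303 genes (threshold 0.05), and genes past it are said to have risen or fallen. SE is the log2 fold change over the square root of F. Mup sums were fitted as a single row. The spread between replicates was 18.5% (biological coefficient of variation). The test was checked on simulated data, drawn with the same spread of 18.5% for every gene and with changes placed only in the more abundant genes. It recovered 4.48% of simulated 1.5-fold changes, 47.8% of 2-fold and 100% of 4-fold changes. These rates do not cover genes of low level or wider spread. A gene that was not called may therefore still have changed. Patterns used log2 CPM with a pseudocount of 0.5. Alternatives were unique reads, DESeq2 1.42.0, other scalings, no filter, a GC and length trend (mgcv 1.9.3) and leaving out each library. Python 3.11.15 with pandas 2.3.3 and SciPy 1.17.1 made the tables.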

Additional observations from a re-analysis of the deposited data

How the results depend on the processing

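No paired analysis was possible because the labels carry no replicate numbers. The numbers used here follow the order of deposit, only name the libraries and give no basis for pairing them. Leaving out a library leaves a genotype with 1 sample, whose spread is then taken from the other genotype. Without TMM scaling the median log2 fold change of all genes moved up by 0.26, to 0.30, so higher values there are to be read against that shift. It gave 3423 genes called against 1640, of which 2634 were higher and 789 lower, against 646 and 994. It also gave 9 calls in the growth hormone axis against 5, 4 among Mup regulators against 0, 8 among male-biased genes against 5, 5 among secreted proteins against 2 and 7 among flanking genes against 2. The log2 fold change of the total Mup sum was 0.94 there, against 0.67.

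The total Mup sum reversed with unique gene reads (-0.17) and unique exon reads (-0.12), as did Mup1 (-0.58 and -0.64), and Mup3 reversed with the GC and length trend removed (-0.030); the cause was not tested. With unique gene reads 1 regulator was called. Unique exon reads gave 2 regulators, 4 secreted proteins and 4 flanking genes. DESeq2 gave 2 regulators and 8 secreted proteins. Without the low-count filter there were 1 regulator, 8 male-biased and 5 flanking genes, and with the GC and length trend removed 3 male-biased genes, 4 secreted proteins and 4 flanking genes.

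With each library left out in turn, 528 to 5405 genes were called, with 528 where Control replicate 2 was absent, 749 where Control replicate 1 was, and 5405 where Dph1 KO replicate 2 was. The lists gave 5 to 8 calls in the growth hormone axis, 0 to 7 regulators, 4 to 7 male-biased, 4 to 7 female-biased genes, 1 to 4 lipocalins, 1 to 7 secreted proteins and 0 to 6 flanking genes. The highest of these ranges came without Dph1 KO replicate 2. The total Mup sum lay between 0.50 and 0.85 and the unique sum between -0.64 and 0.21. Unique reads limit what single copies can show, at 0.58% of reads for Mup1 and 0.01% for Mup9.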
